A study of Rattus norvegicus with 18 samples.

Results

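The genes described here encode the proteasome. They are the rows of the deposited expression table whose symbol starts with Psma, Psmb, Psmc or Psmd followed by a digit, which gave 41 of 17303 rows. The set holds the alpha and beta subunits of the 20S core with the immunoproteasome subunits Psmb8, Psmb9 and Psmb10, the ATPase (Psmc) and non-ATPase (Psmd) subunits of the 19S regulatory particle, and 3 Psmd-named chaperones that help assemble that particle. The rule also took up Psma3l, a Psma3-like row, and Psmc3ip, whose symbol shares the prefix but whose product is a meiotic recombination cofactor and no proteasome subunit. PolyA RNA had been sequenced from ventricular cardiomyocytes of Wistar rats at postnatal day 3. All cultures received the cytosine analogue AraC, which kills dividing cells, for 48 h, then 24 h without serum, then 48 h of treatment, with media renewed at 24 h. The 6 groups of 3 libraries were Vehicle, phenylephrine (PE, an alpha-1 adrenergic agonist that induces hypertrophy) at 10 µM, PE with the CDK8 inhibitor Senexin A at 10 or 50 µM, and Senexin A alone at 10 or 50 µM. The labels do not say whether libraries of a group came from separate cultures or animals, so the tests measure the spread between these libraries, which may be technical.

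The 26S proteasome degrades proteins tagged with ubiquitin. The 19S particle binds the ubiquitin chain, removes it, unfolds the substrate with its ring of ATPases and threads it into the 20S core, a barrel of stacked alpha and beta rings in which 3 beta subunits carry the proteolytic sites. Under interferon these 3 (Psmb6, Psmb7 and Psmb5) can be replaced by Psmb9, Psmb10 and Psmb8, which forms the immunoproteasome and favours peptides for antigen presentation. Subunit genes are known to be induced together by the transcription factor NRF1 when proteasome activity falls short, and in heart muscle the proteasome turns over sarcomeric and signalling proteins during growth and atrophy.

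Promoter sequences from RefSeq were matched by symbol for 35 of the 41 rows. Each window held 250 bases before to 50 after the annotated start in the GRCr8 build, which differs from the rn5 build of the expression table. On either strand, the antioxidant response element core TGACNNNGC, the sequence read by NRF1 and its relative NRF2, was present in 7 of 35 windows (20%), beside 12.1% of all 33469 promoters of the same length. It was found for Psma3, Psmb2, Psmb5, Psmb6, Psmd1, Psmd3 and Psmd9. The core of the interferon-stimulated response element, GAAA and GAAA parted by any 2 bases, was present in 5 of 35 (14.3%, beside 3.92% of all promoters), namely Psma4, Psmb3, Psmb8, Psmb10 and Psmd7. CCAAT was present in 19 of 35 (54.3%, beside 37.5%). A match describes letters only and was not tested as a binding site.

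The stretches from 150 bases before to 20 after the start are printed for 6 genes on which the results turn: Psmd4 and Psmb2, which had among the largest rises at 50 µM Senexin A with PE, Psmb6, which had the largest rise at 50 µM without PE and was chosen for that after its values were seen, and the immunoproteasome genes. Capitals mark TGACNNNGC in Psmb2 and Psmb6, and the interferon element core on either strand in Psmb8 and Psmb10. Neither motif was in the whole 300-base window of Psmd4 or Psmb9. Sequences run 5′ to 3′ on the gene's strand.
Psmd4 (GRCr8 chr2:185297182-185297351, minus strand): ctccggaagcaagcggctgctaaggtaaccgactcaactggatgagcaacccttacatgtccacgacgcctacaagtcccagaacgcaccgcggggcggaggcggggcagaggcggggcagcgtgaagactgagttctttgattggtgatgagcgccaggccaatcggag
Psmb2 (GRCr8 chr5:144254908-144255077, plus strand): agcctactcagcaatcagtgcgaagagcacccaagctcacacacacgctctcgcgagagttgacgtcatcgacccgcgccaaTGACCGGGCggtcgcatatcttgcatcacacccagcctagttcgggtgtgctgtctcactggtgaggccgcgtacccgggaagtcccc
Psmb6 (GRCr8 chr10:55737738-55737907, plus strand): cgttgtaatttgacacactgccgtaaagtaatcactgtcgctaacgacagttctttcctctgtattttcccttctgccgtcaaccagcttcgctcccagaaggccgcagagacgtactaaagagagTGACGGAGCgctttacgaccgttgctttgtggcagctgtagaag
Psmb9 (GRCr8 chr20:4668850-4669019, plus strand): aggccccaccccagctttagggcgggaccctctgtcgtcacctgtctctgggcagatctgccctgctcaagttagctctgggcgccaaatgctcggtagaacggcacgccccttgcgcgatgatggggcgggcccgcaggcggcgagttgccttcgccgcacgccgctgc
Psmb10 (GRCr8 chr19:50743273-50743442, minus strand): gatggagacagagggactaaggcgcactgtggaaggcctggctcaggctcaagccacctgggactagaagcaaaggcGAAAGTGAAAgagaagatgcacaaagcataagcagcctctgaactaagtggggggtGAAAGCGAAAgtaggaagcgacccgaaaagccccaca
Psmb8 (GRCr8 chr20:4657012-4657181, minus strand): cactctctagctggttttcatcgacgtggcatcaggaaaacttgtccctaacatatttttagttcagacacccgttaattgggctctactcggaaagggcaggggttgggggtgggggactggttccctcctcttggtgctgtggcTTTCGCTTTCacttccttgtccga

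Psmb6 thus carries its TGACNNNGC match 24 bases before the start and Psmb2 carries one 68 bases before it. Psmb10 holds 2 matches to the interferon element core, which begin 73 and 17 bases before the start. The Psmb8 match, on the opposite strand, begins 4 bases before the start and runs past it. Psmb8 and Psmb9 lie on opposite strands of chromosome 20, with Tap1 between them in the expression table's coordinates.

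FPKM sums ran from 610324 to 910958 per library, and were 610324 to 660958 in Vehicle against 810428 to 853958 with PE. Relative depth, read from the steps between low values, ran from 0.833 to 1.109, and absolute depth is unknown. FPKM (fragments scaled to gene length and to the library's mapped fragments) were tested as log2(FPKM + 1). Across genes, r between libraries of the same treatment was 0.9863 to 0.9923. The summed level of 6 cardiomyocyte markers was 34000 to 48415 FPKM in Vehicle, 90403 to 108194 with PE, 48214 to 61519 with PE and 50 µM, and 35078 to 55240 with 50 µM alone. Most of it was Myl2, with means of 29979, 69505, 31560 and 28106 FPKM in these groups. Tnni3 moved otherwise, with means of 1550, 2612, 2880 and 2682 FPKM. The 8 fibroblast markers summed to 1757 to 3054 FPKM in Vehicle, 1172 to 1938 with PE, 612 to 1213 with PE and 50 µM and 963 to 1321 with 50 µM alone, with Col1a2 at or near the table's 0.01 floor in every library. Most of these sums was Col1a1 and Col3a1, whose means went from 955 and 930 FPKM in Vehicle to 282 and 282 with PE and 50 µM. The other markers moved less between these groups: Tcf21 from 13.6 to 14.2, Pdgfra from 3.12 to 2.78, Dcn from 57.2 to 47.6, Postn from 254 to 205 and Lum from 21.9 to 14.1. The 3 smooth muscle markers summed to 2558 to 3494 FPKM in Vehicle and 1025 to 1140 with PE and 50 µM. Most of this sum was Tagln, with means of 2809 and 956 FPKM. The 10 leukocyte markers summed to 19.9 to 405 FPKM, highest in 10 µM alone, and the 7 endothelial ones to 2.54 to 9.09. These marker levels moved with the groups, and their part in the results below was not tested. In bulk RNA, fewer cells of a type and less RNA per cell cannot be told apart.

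Of the 41 rows, 39 had at least 1 FPKM in at least 3 libraries and were tested. The testis-type alpha subunit Psma8 stood between 0.01 and 0.0734 FPKM and the thymus-type beta subunit Psmb11 between 0.01 and 0.187, and both failed that minimum. Constitutive core subunits were abundant. In Vehicle their group means ran from 43.2 FPKM (Psma3) to 312 FPKM (Psmb1), those of the ATPases from 73.7 (Psmc6) to 156 (Psmc3), and those of the non-ATPase subunits from 32.6 (Psmd11) to 127 (Psmd6). The assembly chaperones Psmd5, Psmd9 and Psmd10 stood lower, at 39 ± 1.55, 31.2 ± 3.53 and 15.1 ± 1.22 FPKM (SD, n = 3). The immunoproteasome subunits were the lowest of the tested rows, at 9.88 ± 1.19 FPKM for Psmb10, 6.66 ± 1.89 for Psmb9 and 1.06 ± 0.504 for Psmb8.

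Some rows are less certain than others. Psma3 and Psma3l were given the same locus, Psmc3ip shared its locus with Mlx, Psmd1 with Htr2b, and Psmd11 with 8 other rows, so reads may have been divided between them. The Psmd10 row lies on chromosome 3 of rn5 while RefSeq places Psmd10 on the X chromosome of GRCr8, so its values may not be those of that gene. The RefSeq promoter matched by its symbol is among the 35 windows counted above.

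Across the 6 groups, 29 of the 39 tested rows had their highest mean in PE with 50 µM Senexin A, 5 in PE with 10 µM, 3 in 50 µM alone, 1 in PE and 1 in Vehicle. The lowest mean was in Vehicle for 21 rows, in 10 µM alone for 16 and in PE with 50 µM for 2. The 7 tested alpha subunits (Psma1 to Psma7) were highest in PE with 50 µM without exception. No such count was made for rows outside the set, so this order cannot be read as particular to the proteasome. Abundant rows also shifted upward. Among the 3396 that averaged 30 FPKM or more, the median log2 fold change was 0.12 for PE against Vehicle. It was 0.1 for 50 µM with PE against PE and 0.21 for 50 µM against Vehicle.

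**Figure D1:**
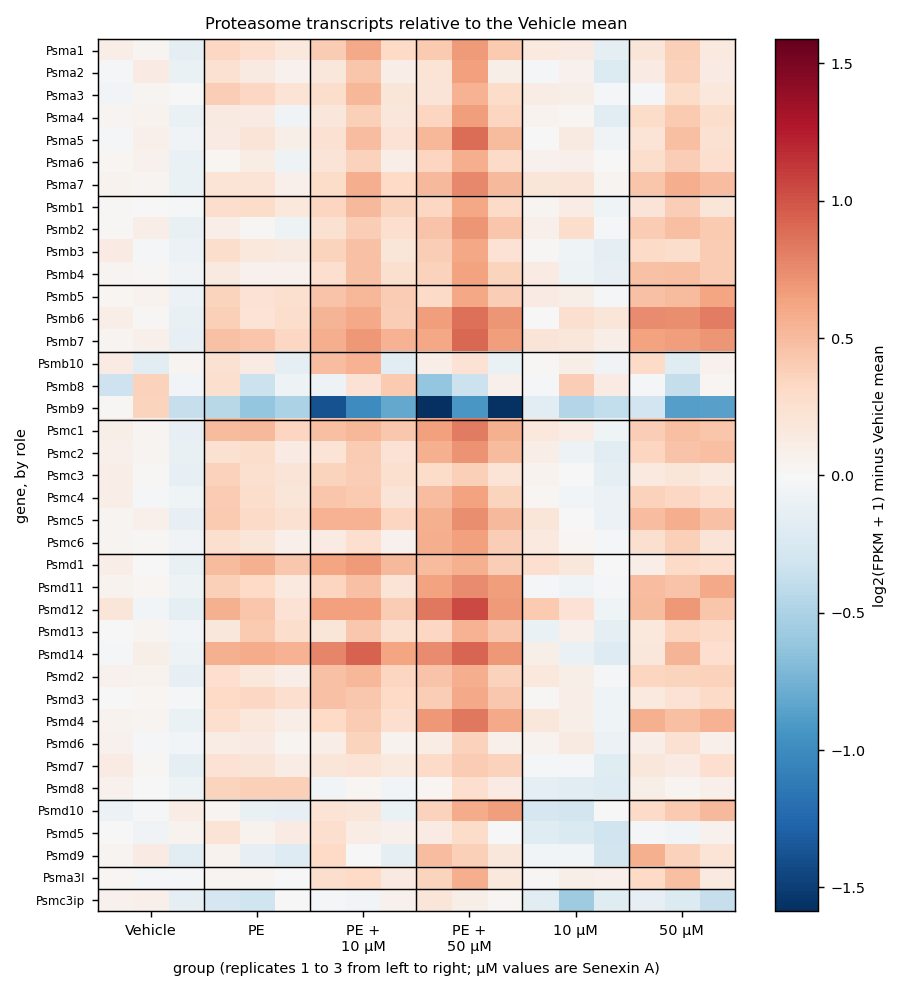
Each row is 1 of the 39 tested genes, ordered by role from the 20S alpha subunits at the top to the 19S chaperones and the 2 further rows at the bottom, and each column is 1 of the 18 libraries; colour gives log2(FPKM + 1) minus the Vehicle mean. Most rows are reddest in the PE with 50 µM columns, of which replicate 2 is the strongest, while Psmb9 is blue there, with a log2 fold change of -0.84 ± 0.22 (SE) against PE.

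Summed over the 31 constitutive subunits of the core and the 19S particle, Vehicle libraries held 4529.5, 4482 and 4083 FPKM in replicates 1 to 3, PE libraries 5310.0, 5189 and 4872, and PE with 10 µM libraries 5540.1, 6094 and 5297. The sums were 5902, 6955 and 5782 FPKM with PE and 50 µM, 4646, 4609 and 4152 with 10 µM alone and 5506, 5879.6 and 5614 with 50 µM alone. All PE libraries lay above all Vehicle libraries, and so did all libraries of 50 µM alone, whereas 10 µM alone overlapped Vehicle. As a share of a library's FPKM sum the order differed. The mean share was 0.686% in Vehicle, 0.611% with PE, 0.653% with PE and 10 µM, 0.75% with PE and 50 µM, 0.617% with 10 µM alone and 0.723% with 50 µM alone. The summed level was thus higher with PE than in Vehicle in FPKM and lower as a share, while 50 µM stood above its own background on both measures.

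**Figure D2:**
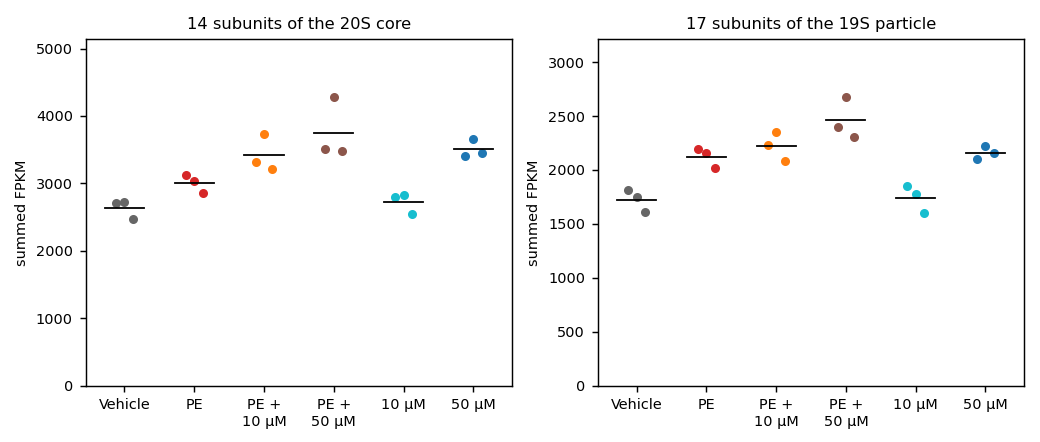
Points are single libraries and bars group means of the FPKM summed over 14 subunits of the 20S core (left) and 17 of the 19S particle (right), on axes that start at 0. The core sum goes from 2639 ± 143 FPKM (SD, n = 3) in Vehicle to 3002 ± 135 with PE and 3506 ± 136 with 50 µM alone, and PE with 50 µM replicate 2 stands above the other libraries of its group.

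PE was compared with Vehicle to ask how the hypertrophic stimulus alters proteasome transcripts. With PE, the catalytic core subunits and much of the 19S particle rose by modest amounts. Psmd14, the deubiquitinase that cuts the ubiquitin chain off the substrate, had 60.3, 65.2 and 57.8 FPKM in the Vehicle replicates and 90.5, 92.3 and 89.6 with PE, a 1.48-fold difference (log2 fold change 0.57 ± 0.1, SE, limma adjusted p = 0.00069). The groups did not overlap. Psmd1, the large scaffold that holds ubiquitin receptors, went from 99.3, 92.9 and 85.1 to 131, 137 and 125 FPKM (0.50 ± 0.082, adjusted p = 0.00032). Psmc1, an ATPase of the ring, went from 117 ± 9.64 to 159.9 ± 10.4 FPKM (0.45 ± 0.083, adjusted p = 0.00079).

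In all, 16 of 39 tested rows were called higher with PE (limma, Benjamini-Hochberg adjusted p under 0.05) and 0 lower, beside 17.9% of all 10478 rows tested called higher and 12.7% lower. Unadjusted p was under 0.05 for 22 higher and 1 lower. The median log2 fold change was 0.18, beside -0.01 over all rows. By role, the higher rows were 3 of 3 catalytic core subunits, 4 of 6 ATPases, 7 of 11 non-ATPase subunits, 1 of 7 alpha and 1 of 4 non-catalytic beta subunits, and 0 of 3 immunoproteasome subunits and 0 of 3 chaperones. Psmb7 (trypsin-like site), Psmb6 (caspase-like site) and Psmb5 (chymotrypsin-like site) changed by 0.41 ± 0.078, 0.29 ± 0.084 and 0.28 ± 0.078 on the log2 scale (adjusted p = 0.0011, 0.016 and 0.013). Among the other ATPases, Psmc5 changed by 0.32 ± 0.089 (adjusted p = 0.013) and Psmc4 by 0.29 ± 0.084 (0.015). The non-ATPase subunits Psmd12 (0.41 ± 0.13, adjusted p = 0.03) and Psmd8 (0.37 ± 0.06, adjusted p = 0.00033) also rose, as did the structural subunits Psma3 (0.31 ± 0.1, adjusted p = 0.03) and Psmb1 (0.25 ± 0.087, adjusted p = 0.042).

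Since proteasome genes are abundant, a second background was set after the values were seen, of 3396 rows with a mean of at least 30 FPKM: 32.7% of them were called higher with PE and 8.6% lower, beside 16 and 0 of the 34 member rows among them. These counts depended on the scaling between libraries. After quantile normalization 7 members were higher (Psmb7, Psmc1, Psmd1, Psmd3, Psmd8, Psmd11 and Psmd14) and 5 lower (Psma3l, Psma4, Psma6, Psmb2 and Psmb4), and the members' median was 0.01. Over all rows, quantile normalization moved the share of higher among called rows from 58.47% to 47.66%. With the replicate number as a block 23 were higher and 0 lower. Leaving out PE replicate 1 left 7 higher, and leaving out Vehicle replicate 3 left 6 higher and 1 lower; Psmb5, Psmb6, Psmc3, Psmc4, Psmc5, Psmd11 and Psmd12 lost their call in both omissions, Psmd12 in 4 of 6 omissions in all, and Psma3 and Psmb1 in 5 of 6.

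Senexin A alone was compared with Vehicle at each dose. At 50 µM most constitutive subunits rose, led by the catalytic ones. Psmb6 had 192, 181 and 165 FPKM in the Vehicle replicates and 302, 299.8 and 314 at 50 µM, a 1.70-fold difference (log2 fold change 0.77 ± 0.084, limma adjusted p = 1.2e-06). Psmb7 had 193, 197 and 171 FPKM and 291, 296 and 303 FPKM in the same groups (0.67 ± 0.078, adjusted p = 2.5e-06). Psmb5 had 185, 188 and 169.9 FPKM and 249.8, 257 and 278 FPKM (0.53 ± 0.078, adjusted p = 2.4e-05). For each of them every 50 µM library lay above every Vehicle library.

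At 50 µM without PE, 28 of 39 members were called higher and 1 lower, beside 30.5% and 30.2% of all rows tested. Among rows with a mean of at least 30 FPKM the shares were 49.2% and 23.3%, beside 27 and 0 of 34 members. The members' median log2 fold change was 0.32, against -0.01 over all rows. The higher rows were 4 of 7 alpha, 4 of 4 non-catalytic beta, 3 of 3 catalytic, 5 of 6 ATPase, 9 of 11 non-ATPase and 2 of 3 chaperone genes. Psma7 led the alpha ring at 0.50 ± 0.09 (adjusted p = 0.00016), with Psma4 at 0.33 ± 0.096 and Psma5 at 0.32 ± 0.1. In the beta ring, Psmb4 changed by 0.45 ± 0.086, Psmb2 by 0.43 ± 0.089 and Psmb3 by 0.33 ± 0.095. Psmc5 (0.51 ± 0.089, adjusted p = 0.00014), Psmc1 (0.44 ± 0.083, adjusted p = 0.00029) and Psmc2 (0.42 ± 0.085, adjusted p = 0.00046) led the ATPases. Among the non-ATPase subunits the leaders were the lid subunits Psmd12 (0.54 ± 0.13, adjusted p = 0.0023) and Psmd11 (0.51 ± 0.075, adjusted p = 2.4e-05) and the ubiquitin receptor Psmd4 (0.53 ± 0.078, adjusted p = 2.2e-05).

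Quantile normalization left 13 higher (Psma7, Psmb2, Psmb4, Psmb5, Psmb6, Psmb7, Psmc1, Psmc2, Psmc5, Psmd4, Psmd10, Psmd11 and Psmd12) and 2 lower (Psmc3ip and Psmd8), with a median of 0.10. Under it the catalytic subunits kept their calls, at 0.52, adjusted p = 2.9e-05 for Psmb6, 0.40, adjusted p = 1.3e-05 for Psmb7 and 0.27, adjusted p = 0.00068 for Psmb5. Of the members named above as higher, Psma5 lost its call without Senexin A 50 µM replicate 2 or without Vehicle replicate 3. Among the other rows called higher, Psmd1 and Psmd7 lost theirs in 4 of 6 omissions of a library. Psmd9 lost its call in 2 and Psmb1 and Psmd14 in 1. Psmb9, called lower, is described below.

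**Figure D3:**
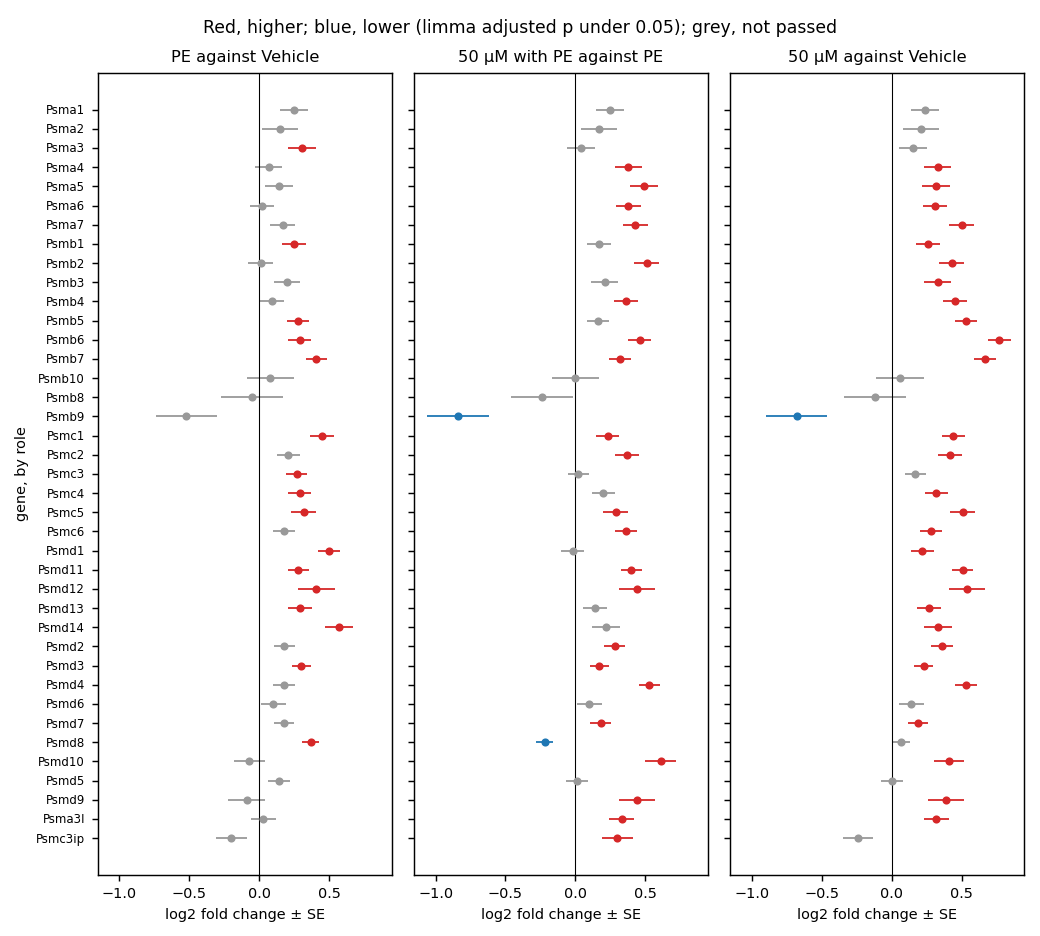
Points are log2 fold changes on the log2(FPKM + 1) scale and bars their standard errors for the 39 tested genes, in the order of roles used above, in 3 comparisons; red is higher and blue lower at a limma adjusted p under 0.05. There are 16 red points for PE against Vehicle, 22 for 50 µM with PE against PE and 28 for 50 µM against Vehicle, and Psmb9 is blue in both comparisons of 50 µM.

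On top of PE, Senexin A at 50 µM was compared with PE alone, to ask what the compound does under the hypertrophic stimulus. Much of the core and the regulatory particle rose over PE alone. Of the 22 rows called here, 7 had been called higher with PE against Vehicle (Psmb6, Psmb7, Psmc1, Psmc5, Psmd3, Psmd11 and Psmd12). With the replicate block, PE against Vehicle also called Psma7 (limma adjusted p = 0.038), Psmc2 (0.025), Psmc6 (0.021), Psmd2 (0.017), Psmd4 (0.029) and Psmd7 (0.035) higher. Psmd4, which binds ubiquitin chains, had 130.5, 122 and 116 FPKM with PE and 176, 194 and 165 with PE and 50 µM, a 1.45-fold difference (log2 fold change 0.53 ± 0.078, limma adjusted p = 2.7e-05). Psmb2, a structural beta subunit that PE alone left at 0.01 ± 0.089 (adjusted p = 0.93), had 141, 133 and 125 FPKM with PE and 179.5, 214 and 179 with PE and 50 µM (0.51 ± 0.089, adjusted p = 0.00013). Both genes were separated between the groups in every library.

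Of 39 members, 22 were called higher and 2 lower, beside 29.3% and 27.4% of all rows tested, and 39.7% and 26.4% of rows with a mean of at least 30 FPKM, of which 20 and 1 were among 34 members. The median log2 fold change was 0.25, against 0.00 over all rows. The higher ones were 4 of 7 alpha, 2 of 4 non-catalytic beta, 2 of 3 catalytic, 4 of 6 ATPase, 6 of 11 non-ATPase and 2 of 3 chaperone genes, with Psma3l and Psmc3ip. Psma5 changed by 0.49 ± 0.1 (adjusted p = 0.00076), Psma7 by 0.43 ± 0.09 and Psma6 by 0.38 ± 0.086. Psmb6 changed by 0.46 ± 0.084 (adjusted p = 0.00024), Psmb7 by 0.32 ± 0.078 (0.0025) and Psmb4 by 0.36 ± 0.086 (0.0022), while Psmb5 was at 0.16 ± 0.078 and did not pass (0.097). The ATPases Psmc2, Psmc6 and Psmc5 changed by 0.37 ± 0.085, 0.36 ± 0.08 and 0.29 ± 0.089, and the lid subunits Psmd12 and Psmd11 by 0.44 ± 0.13 and 0.40 ± 0.075. The row labelled Psmd10, the chaperone gankyrin, whose locus is uncertain, stood at 15.6, 13.8 and 13.7 FPKM with PE and 19.7, 23.2 and 24.4 with PE and 50 µM (0.61 ± 0.11, adjusted p = 0.00021).

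The members called lower here were Psmb9, described with the immunoproteasome below, and Psmd8, a non-ATPase lid subunit. Quantile normalization gave 20 higher and 2 lower, the latter again Psmb9 and Psmd8, and a median of 0.18. PE with 50 µM replicate 2 was the highest of its group for most members, and without it 16 were higher and 2 lower. Psmc5 and Psmd12 were among the calls lost, and both were lost without PE replicate 3 as well. Psmd7 (limma adjusted p = 0.049) lost its call in 6 of 6 omissions of a library, and Psmd3 and Psmc3ip in 4 of 6. Quantile normalization called none of Psmd7, Psmd3 and Psmc3ip. Of the members, 21 were higher at 50 µM in both backgrounds, which is 95.5% of the 22 with PE and 75.0% of the 28 without. Both sets of calls compare different libraries but use the same estimate of spread for each gene, so they are not independent. The matching overlap over all rows was not computed. Psmc3ip was called higher with PE only; Psmb1, Psmb3, Psmb5, Psmc4, Psmd1, Psmd13 and Psmd14 were called higher without PE only, though with the replicate block 28 members were higher with PE and Psmb1 (adjusted p = 0.019), Psmb3 (0.032), Psmc4 (0.0071), Psmd13 (0.025) and Psmd14 (0.023) were among them. Whether the changes differed between the backgrounds is the interaction given below.

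At 10 µM few members passed the test. With PE, 2 of 39 were called higher and 1 lower against PE alone, beside 9.13% and 7.84% of all rows tested, and the median was 0.16 against 0.01 over all rows. Psmb2 went from 141, 133 and 125 to 156, 173 and 158 FPKM (0.29 ± 0.089, adjusted p = 0.034) and Psmd2, the other large scaffold of the 19S base, from 126 ± 7.25 to 152 ± 9.94 FPKM (0.26 ± 0.076, adjusted p = 0.026). With the replicate number as a block 8 were higher, adding Psma3l, Psma5, Psma6, Psma7, Psmb4 and Psmb7. Psmb2 lost its call in 5 of 6 omissions of a library and Psmd2 in 4, and only without PE replicate 1 were both kept. The catalytic subunits Psmb6, Psmb7 and Psmb5 stood at 0.22 ± 0.084, 0.20 ± 0.078 and 0.18 ± 0.078 (adjusted p = 0.085, 0.097 and 0.13).

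Without PE, 10 µM against Vehicle called 0 members higher and 1 lower by limma, beside 9.17% and 7.01% of all rows, with 0 higher and 3 lower at an unadjusted p under 0.05. The median was 0.03. The 1 lower gene was Psmd5, a chaperone of 19S base assembly, with 39.3, 37.4 and 40.4 FPKM in Vehicle and 34, 33.1 and 31 at 10 µM (-0.25 ± 0.078, adjusted p = 0.04), a call lost when any of the 6 libraries was left out. Quantile normalization called 4 lower (Psmb4, Psmc3ip, Psmd5 and Psmd8) and the block 3 (Psmc3ip, Psmd5 and Psmd8). Psmb6, Psmb7 and Psmb5 were at 0.15 ± 0.084, 0.16 ± 0.078 and 0.07 ± 0.078 (adjusted p = 0.26, 0.18 and 0.58).

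The doses were also compared with each other. Without PE, 50 µM against 10 µM called 30 of 39 members higher and 0 lower, beside 25.4% and 24.9% of all rows tested, and among rows with a mean of at least 30 FPKM 29 of 34 members were higher and 0 lower beside 40.4% and 21.4%. The higher rows included 6 of 6 ATPases, 3 of 3 catalytic subunits, 3 of 3 chaperones and 9 of 11 non-ATPase subunits. Psmb6 differed by 0.62 ± 0.084 (limma adjusted p = 2e-05), Psmd11 by 0.55 ± 0.075 (2.1e-05), Psmb7 by 0.50 ± 0.078 (7e-05), Psmc5 by 0.47 ± 0.089 (0.00039), Psmb4 by 0.47 ± 0.086 (0.00029) and Psma7 by 0.36 ± 0.09 (0.0037). Quantile normalization left 19 higher and 0 lower, all of the catalytic subunits included.

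With PE the dose contrast was smaller in count. At 50 against 10 µM, 0 of 39 members were lower, beside 19.9% of all rows. The 8 members called higher were a share near the 21.3% of all rows. They were Psmd10 (0.44 ± 0.11, adjusted p = 0.0047), Psmd4 (0.38 ± 0.078, adjusted p = 0.001), Psmc6 (0.38 ± 0.08, adjusted p = 0.0012), Psmd11 (0.34 ± 0.075, adjusted p = 0.0018), Psma5 (0.31 ± 0.1, adjusted p = 0.024), Psmc2 (0.30 ± 0.085, adjusted p = 0.0089), Psmb6 (0.24 ± 0.084, adjusted p = 0.033) and Psmd8 (0.16 ± 0.06, adjusted p = 0.038). Quantile normalization gave 13 higher and 1 lower, and the replicate block 17 higher. Without PE with 10 µM replicate 3, and likewise without PE with 50 µM replicate 2, 5 were higher, and Psma5, Psmb6 and Psmd8 lost their calls in both.

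The interaction asks whether the change with Senexin A differed between PE and no PE. At 50 µM, 1 member was called higher (Psmc3ip) and 1 lower (Psmd8), beside 2.24% and 4.76% of all rows. After quantile normalization neither was called and Psma6 was, at 0.29, adjusted p = 0.027, against 0.07 ± 0.12, adjusted p = 0.8 without it. The catalytic subunits all had negative estimates that did not pass: Psmb5 -0.37 ± 0.11 (limma adjusted p = 0.052), Psmb7 -0.35 ± 0.11 (0.071) and Psmb6 -0.31 ± 0.12 (0.13). With the replicate block Psmb5 and Psmb7 passed (adjusted p = 0.022 and 0.016) and Psmb6 did not (0.075), whereas after quantile normalization the estimates were -0.17, adjusted p = 0.22 for Psmb5, -0.16, adjusted p = 0.23 for Psmb7 and -0.13, adjusted p = 0.56 for Psmb6. PE and 50 µM together left these genes near the level that 50 µM alone reached: Psmb6 stood at 302 ± 24.5 and 306 ± 7.79 FPKM, Psmb7 at 311 ± 34.8 and 297 ± 6.21, and Psmb5 at 246 ± 27.4 and 262 ± 14.9, a difference that was not tested. For the other constitutive subunits, estimates ran from -0.29 (Psmd8) to 0.18 (Psma5). At 10 µM the interaction called 0 members, beside 0.0668% of rows higher and 0.239% lower, with 4 higher and 1 lower at an unadjusted p under 0.05.

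Psmd8 was the 1 non-ATPase subunit called lower when Senexin A was added to PE. It rose with PE, from 121, 115 and 109 to 147, 149 and 149 FPKM (0.37 ± 0.06, adjusted p = 0.00033, limma), and fell when Senexin A was added to PE, to 112, 117 and 111 FPKM at 10 µM (-0.39 ± 0.06, adjusted p = 0.00065) and 117, 138 and 126 at 50 µM (-0.22 ± 0.06, adjusted p = 0.0052). The PE libraries did not overlap with those of either dose. Both falls were called under quantile normalization too, at -0.43, adjusted p = 8.9e-05 and -0.31, adjusted p = 8.6e-05, and in each omission of 1 library. Without PE the gene had 103, 102 and 99.8 FPKM at 10 µM (-0.18 ± 0.06, adjusted p = 0.055, and 0.031 with the replicate block) and 123, 118 and 122 at 50 µM (0.07 ± 0.06, adjusted p = 0.31). The interaction at 50 µM was -0.29 ± 0.085, adjusted p = 0.048, lost under quantile normalization (-0.16, adjusted p = 0.21) and in 10 of 12 omissions; at 10 µM it was -0.21 ± 0.085, adjusted p = 0.42.

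Psmd1 and Psmd14, which rose most among the 19S subunits with PE, were not called in PE with 50 µM against PE without the block. Psmd1 had 131, 136 and 122 FPKM in PE with 50 µM (-0.02 ± 0.082, adjusted p = 0.88) and Psmd14 had 103, 116 and 98.8 (0.22 ± 0.1, adjusted p = 0.078, and 0.023 with the replicate block, which called it higher). Psmc3, another ATPase, likewise had 188 ± 10.8 FPKM with PE and 191 ± 11 with PE and 50 µM (0.02 ± 0.075, adjusted p = 0.83).

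The immunoproteasome subunits departed from the constitutive ones. Psmb9 was lower at 50 µM Senexin A in both backgrounds, while Psmb8 and Psmb10 passed in no comparison. Psmb9 had 6.6, 8.58 and 4.81 FPKM in the Vehicle replicates and 4.54, 3.9 and 4.28 with PE (-0.52 ± 0.22, adjusted p = 0.078, limma). It had 1.87, 2.75 and 3.28 FPKM with PE and 10 µM (-0.55 ± 0.22, adjusted p = 0.096 against PE) and 1.5, 2.95 and 1.53 with PE and 50 µM (-0.84 ± 0.22, adjusted p = 0.0035), below every PE library. Without PE the values were 5.7, 4.43 and 4.71 FPKM at 10 µM (-0.34 ± 0.22, adjusted p = 0.31 against Vehicle) and 5.07, 3.08 and 3.13 at 50 µM (-0.68 ± 0.22, adjusted p = 0.012), which overlapped Vehicle. With PE the call stood in all 6 omissions and under quantile normalization (-0.69, adjusted p = 0.014). Without PE it was lost under quantile normalization (-0.44, adjusted p = 0.093) and when Senexin A 50 µM replicate 2, its replicate 3 or Vehicle replicate 2 was left out. The interaction at 50 µM was -0.16 ± 0.31, adjusted p = 0.82.

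Psmb10 stayed between 8.5 and 14.9 FPKM and Psmb8 between 0.319 and 1.69 over all 18 libraries. At 50 µM with PE they were at 0.00 ± 0.17 and -0.24 ± 0.22 (adjusted p = 0.99 and 0.39), and without PE at 0.06 ± 0.17 and -0.12 ± 0.22 (0.78 and 0.67); the wide errors and a level near 1 FPKM leave changes of Psmb8 poorly measured. Read per length, as FPKM of the immunoproteasome subunit over that of its counterpart, Psmb9 was 3.7% ± 0.945 of Psmb6 in Vehicle, 1.93% ± 0.0438 with PE, 1.04% ± 0.341 with PE and 10 µM and 0.648% ± 0.213 with PE and 50 µM (SD, n = 3). It was 2.52% ± 0.595 at 10 µM alone and 1.23% ± 0.385 at 50 µM alone. Every library of PE with 50 µM stood below every PE library in this ratio. Psmb10 over Psmb7 was 5.32% ± 0.857 in Vehicle, 4.22% ± 0.427 with PE and 3.37% ± 0.336 with PE and 50 µM, and Psmb8 over Psmb5 was 0.582% ± 0.262, 0.436% ± 0.165 and 0.278% ± 0.178. Psmb10 itself had means of 9.88, 10.5 and 10.5 FPKM in these groups, beside 187, 248 and 311 for Psmb7. The lower Psmb10 ratio thus came from a higher Psmb7 and not from less Psmb10. The ratios are within a library and were not tested. The leukocyte markers, which sum to 38.3 to 121 FPKM in Vehicle, 19.9 to 92.1 with PE and 24.4 to 246 with PE and 50 µM, overlapped between these groups. The sums of fibroblast markers overlapped narrowly between PE and PE with 50 µM (1172 to 1938 and 612 to 1213 FPKM). Col1a1 (509 to 777 and 198 to 416 FPKM) and Col3a1 (472 to 777 and 190 to 415) did not overlap. Dcn, Lum, Pdgfra, Postn and Tcf21 did. The sums of endothelial markers did not overlap (6.81 to 9.09 and 2.88 to 4.47 FPKM). Nor did those of smooth muscle markers (2034 to 2800 and 1025 to 1140) or cardiomyocyte markers (90403 to 108194 and 48214 to 61519). Tagln and Myl2 made up most of the latter sums, while Myh11, Tnnt2, Tnni3 and Ryr2 overlapped. Limma called 2 of 3 smooth muscle and 3 of 6 cardiomyocyte markers lower, beside 27.4% of all rows. The part of cell makeup in the Psmb9 values was not tested.

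**Figure D4:**
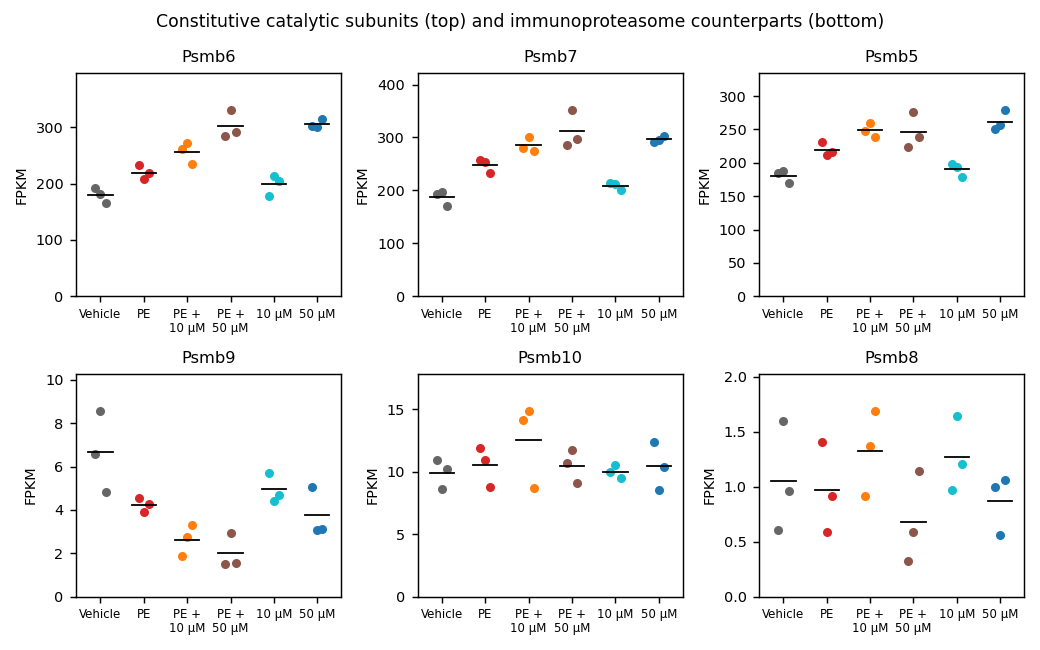
FPKM of the 3 constitutive catalytic subunits (top) and of the immunoproteasome subunit that replaces each (bottom); points are single libraries, bars group means, and each axis starts at 0. Psmb6, Psmb7 and Psmb5 are higher at 50 µM alone than in Vehicle without overlap, whereas Psmb9 goes from 6.66 ± 1.89 FPKM (SD, n = 3) in Vehicle to 1.99 ± 0.829 with PE and 50 µM.

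Genes whose products build, open or feed the proteasome were read from lists chosen beside the members. A list of assembly chaperones, which also held the nuclear import factor Akirin2, had 5 of 7 genes in the table. Of these 5, 4 were higher at 50 µM both with and without PE, and 0 lower. Over all rows tested, 29.3% were higher at 50 µM with PE and 30.5% without. Psmg4, which pairs alpha subunits during ring assembly, had 36.9, 33.2 and 43.8 FPKM with PE and 93.8, 105 and 101 with PE and 50 µM (1.38 ± 0.11, adjusted p = 8.2e-08, limma), and 50.5, 36.4 and 44.4 in Vehicle and 116, 114 and 124 with 50 µM alone (1.42 ± 0.11, adjusted p = 4.9e-08). Psmg2 changed by 0.71 ± 0.067 with PE and 0.80 ± 0.067 without, Psmg1 by 0.60 ± 0.086 and 0.52 ± 0.086, and Akirin2, which carries proteasomes into the nucleus, by 0.51 ± 0.069 and 0.40 ± 0.069. At 10 µM with PE, 2 of 5 were higher, beside 9.13% of all rows: Psmg4 (0.43 ± 0.11, adjusted p = 0.016) and Psmg2 (0.21 ± 0.067, adjusted p = 0.04). For PE against Vehicle limma called 0 of 5, with the largest estimate at 0.38 ± 0.43 for Pomp (adjusted p = 0.54). The maturation factor Pomp passed in no comparison without the replicate block, with -0.85 ± 0.43 at 50 µM with PE.

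Of 5 listed genes for activators that cap the core in place of the 19S particle and for the inhibitor, 2 were higher and 2 lower at 50 µM with PE, beside 29.3% and 27.4% of all rows tested. Psme1 and Psme2, the interferon-inducible PA28 alpha and beta subunits, fell at 50 µM with PE, Psme1 from 254, 251 and 232 to 145, 173 and 173 FPKM (-0.59 ± 0.093, adjusted p = 5.8e-05) and Psme2 from 48.7, 42.8 and 41.7 to 31.5, 38.1 and 34.4 (-0.35 ± 0.087, adjusted p = 0.0028, limma). Psme3, the nuclear PA28 gamma, rose from 57.3, 54.7 and 53.5 to 75.8, 83.7 and 78.5 FPKM (0.52 ± 0.062, adjusted p = 3.4e-06), and the inhibitor Psmf1 rose as well (0.55 ± 0.098, adjusted p = 0.00017). Without PE, 50 µM raised Psme3 (0.59 ± 0.062, adjusted p = 7.6e-07) and Psmf1 (0.63 ± 0.098, adjusted p = 3.8e-05), while Psme1 and Psme2 were at -0.04 ± 0.093 and 0.06 ± 0.087 (adjusted p = 0.76 and 0.55). The interaction at 50 µM passed for Psme1 (-0.55 ± 0.13, adjusted p = 0.02), though not after quantile normalization (-0.35, adjusted p = 0.064). Psme4, which encodes the activator PA200, had 67, 65.3 and 57 FPKM with PE and 53.4, 55 and 52.9 with PE and 50 µM, without overlap (-0.22 ± 0.12, adjusted p = 0.12). It was called lower there with the replicate block (adjusted p = 0.026) and after quantile normalization (-0.30, adjusted p = 0.02). Psme1 shared its locus with Emc9.

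**Figure D5:**
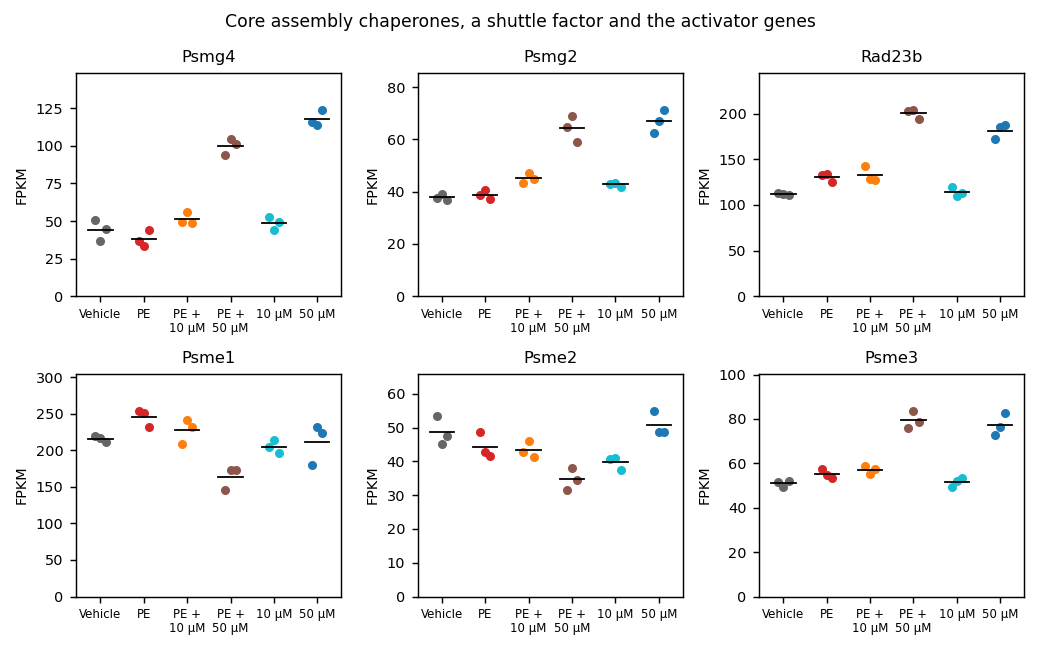
FPKM by library for the assembly chaperones Psmg4 and Psmg2, the shuttle factor Rad23b and the activator subunits Psme1, Psme2 and Psme3; bars are group means and each axis starts at 0. Psmg4, Psmg2, Rad23b and Psme3 are highest in both groups with 50 µM, and Psme1 is lowest in PE with 50 µM, at 164 ± 15.8 FPKM (SD, n = 3).

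Of 8 measured proteasome-bound and shuttle factors, 7 were higher and 1 lower at 50 µM against Vehicle, beside 30.5% and 30.2% of all rows tested and 49.2% and 23.3% of rows with a mean of at least 30 FPKM. After quantile normalization 5 were higher and 1 lower. The ubiquitin shuttle Rad23b, which had 113, 112 and 111 FPKM in Vehicle and 172, 185 and 187 at 50 µM without overlap, led (0.69 ± 0.059, adjusted p = 9.3e-08), followed by the ubiquitin receptor Adrm1 (0.43 ± 0.089, adjusted p = 0.00062). The shuttle Ubqln2 was lower (-0.26 ± 0.091, adjusted p = 0.022). With PE, 4 were higher and 1 lower at 50 µM, beside 29.3% and 27.4% of all rows, and 6 were higher with the replicate block, with Rad23b at 0.61 ± 0.059 and the deubiquitinase Uchl5 at 0.57 ± 0.097. PE alone raised 4 of 8, beside 17.9% of all rows, the small 19S subunit Shfm1 (Sem1), Adrm1, Usp14 and Rad23b, by 0.22 to 0.35 on the log2 scale, and 0 after quantile normalization.

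Among 9 measured genes of NRF1, its relatives and the machinery that processes it, 4 were higher and 2 lower at 50 µM in each background, shares near those of all rows tested (29.3% and 27.4% with PE, 30.5% and 30.2% without). Nfe2l2, which encodes NRF2, had 73.9, 70.5 and 77.9 FPKM in Vehicle and 124, 129 and 131 at 50 µM (0.78 ± 0.057, adjusted p = 1.9e-08, limma), and changed by 0.66 ± 0.057 with PE. Its small Maf partner Mafg changed by 0.99 ± 0.12 without PE and 1.10 ± 0.12 with it. Mafk moved otherwise: it rose with PE (1.00 ± 0.095, adjusted p = 1.9e-06) and fell when 10 µM (-0.94 ± 0.095, adjusted p = 3e-05) or 50 µM (-1.03 ± 0.095, adjusted p = 2.6e-07) was added. Without PE, Mafk also stood lower, with means of 44.2 FPKM in Vehicle, 30 at 10 µM and 31.3 at 50 µM. Neither dose overlapped Vehicle. Maff fell at 10 µM (-0.99 ± 0.14, adjusted p = 0.00027) and 50 µM (-0.94 ± 0.14, adjusted p = 2.5e-05) without PE. Its means were 9.05 FPKM with PE, 4.85 with PE and 10 µM and 7.27 with PE and 50 µM. Of the processing genes, the p97 cofactor Nploc4 rose at 50 µM (0.44 ± 0.079, adjusted p = 0.00021 with PE). The gene for NRF1 itself, Nfe2l1, was not analysed here.

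Among the ubiquitin genes, Rps27a, which encodes ubiquitin fused to a ribosomal protein, rose at 50 µM without PE by 0.55 ± 0.067 (limma adjusted p = 3.9e-06) and with PE by 0.43 ± 0.067. The stress-inducible polyubiquitin gene Ubb did not pass without PE, at -0.14 ± 0.19 (adjusted p = 0.55). With PE and 50 µM, the activating enzyme Uba1 was lower (-0.19 ± 0.059, adjusted p = 0.011).

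Genes of antigen processing and interferon response, the programme that induces the immunoproteasome, had 11 tested members of 16 in the table. With 50 µM alone 1 was higher and 5 lower, beside 30.5% and 30.2% of all rows tested, with Irf9 at -1.48 ± 0.19 (limma adjusted p = 7.6e-06) and Irf7 at -1.06 ± 0.28 (0.0041). With PE against Vehicle 1 was also higher and 5 lower, beside 17.9% and 12.7% of all rows, Ifit1 being the higher one (1.22 ± 0.18, adjusted p = 0.00012) and Irf7 (-0.92 ± 0.28, adjusted p = 0.022) and Irf9 (-0.83 ± 0.19, adjusted p = 0.0042) the lowest. Adding 50 µM to PE left 1 higher and 3 lower, beside 29.3% and 27.4% of all rows, and 2 higher and 5 lower with the replicate block, with Ifit1 at -1.89 ± 0.18 and Irf9 at -0.81 ± 0.19. Ifit1 reached 1 FPKM only in the PE libraries (2.09, 3.77 and 3.29). It thus entered the test only through the group where it was high. Its rise with PE and its fall with 50 µM were shaped by that selection. The peptide transporter gene Tap1, which neighbours Psmb9, was lower with PE (-0.52 ± 0.14, adjusted p = 0.0087) and at 0.24 ± 0.14 when 50 µM was added (adjusted p = 0.14).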

How the data were processed

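PolyA RNA libraries (18) were made with the TruSeq RNA V2 kit, per the labels' protocols. The deposited table gave FPKM, 1 column per library. The submitters' processing notes name Bowtie2, Cufflinks and rn5; versions, annotation and strand setting are not given in the sources used here. Values bottomed out at 0.01 FPKM (27.4% of them). Groups and replicate numbers came from the labels. A row was tested when 3 or more libraries reached 1 FPKM (10478 of 17303), as log2(FPKM + 1), a scale that understates changes of low genes, with limma 3.58.1 in R 4.3.3 (trend, 6 group means, 12 residual degrees of freedom). P-values were adjusted over all rows per comparison and called under 0.05. The procedure was tested on simulated data. Libraries with the same replicate number deviated together (r from 0.213 to 0.587 in 45 pairs, against -0.462 to 0.095 in 90 pairs with different numbers), a pairing read from the data and not stated by the labels; block values are given beside the printed results whose call they change. Members and lists were chosen with earlier results of these data known. Some listed genes are not reported here and are left out of the list counts. Genes were named by a rule: the catalytic pairs (Psmb5 to Psmb10), up to 3 called members per role, direction and comparison, members called against their role, and up to 3 called genes per list; other names were added after seeing values. Alternatives changed the pseudocount (0.1, 0.5), the filter (none, 5 FPKM), scaling (quantile, median ratio), samples fitted, the block, and left out each library. Tables and figures came from Python 3.11.15 with pandas 2.3.3, numpy 2.4.6 and matplotlib 3.10.9.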

Additional observations from a re-analysis of the deposited data

Results flagged for a closer look

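The change at 50 µM Senexin A differed between PE and no PE for 2 rows, by the interaction tested with limma. For Psmc3ip, which is no proteasome subunit, the interaction was 0.54 ± 0.15, adjusted p = 0.044: it had 32.5, 32.8 and 28.1 FPKM in Vehicle, 28.2, 26.5 and 24 with 50 µM alone, 25.7, 24.8 and 30.8 with PE and 35.5, 33.1 and 31.7 with PE and 50 µM, and the call was lost in 9 of 12 omissions of 1 library and under quantile normalization (0.53, adjusted p = 0.052). For Psmd8 it was -0.29 ± 0.085, adjusted p = 0.048, and the call was lost in 10 of 12 omissions and under quantile normalization (-0.16, adjusted p = 0.21). Psmc3ip shares its locus with Mlx, and the part of shared reads was not tested.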

How the results depend on the processing

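Under quantile normalization the members called with PE went from 16 higher and 0 lower to 7 and 5, with 10 µM alone from 1 lower to 4, with 50 µM alone from 28 higher and 1 lower to 13 and 2, for 50 against 10 µM with PE from 8 and 0 to 13 and 1, for 50 against 10 µM without PE from 30 higher to 19, and for the 50 µM interaction from 1 lower to 0. Fitting only the compared groups gave 1 higher for 10 µM with PE (from 2), 0 lower for 10 µM alone, 5 higher for 50 against 10 µM with PE and 0 lower for the 50 µM interaction. With no filter, 10 µM with PE had 1 higher and the 50 µM interaction 0 higher; that interaction had 2 lower with the 5 FPKM filter and 2 with median-ratio scaling. The replicate block gave 8 higher for 10 µM with PE, 3 lower for 10 µM alone, 17 higher for 50 against 10 µM with PE and 3 lower for the 50 µM interaction; in the other comparisons it moved no member count by over 1.5 times. Leaving out each library in turn gave 6 to 16 higher and 0 to 1 lower with PE, 0 to 2 higher for 10 µM with PE, 0 to 0 lower for 10 µM alone, 0 to 2 lower for 50 µM alone, 5 to 11 higher and 0 to 1 lower for 50 against 10 µM with PE, and 0 to 1 higher and 0 to 3 lower for the 50 µM interaction. The cause of these shifts was not tested. Of 1578 alternatives for 108 pairs of a named member and a comparison, 1437 kept direction and side of the threshold, 88 lost the call, 12 gained it and 41 changed sign. Signs changed under quantile normalization for Psmb1 (-0.06) and Psmb8 (0.01) with PE, Psmb10 at 50 µM with PE (0.04), Psmb5 at 10 µM alone (-0.06), Psmb8 at 50 µM alone (0.07) and Psmb5 for 50 against 10 µM with PE (0.01); of these only Psmb1 had been called. Other sign changes came from leaving out a library, in uncalled log2 fold changes near 0, with these ranges: PE against Vehicle (Psmb10 -0.01 to 0.19, Psmb8 -0.22 to 0.13); 50 µM with PE (Psmb10 -0.11 to 0.09); 10 µM alone (Psmb10 -0.07 to 0.09, Psmb8 -0.0017 to 0.35); 50 µM alone (Psmb10 -0.06 to 0.19, Psmb8 -0.28 to 0.07); 50 against 10 µM with PE (Psmb5 -0.11 to 0.05); 50 against 10 µM without PE (Psmb10 -0.08 to 0.17); the 10 µM interaction (Psmb6 -0.0041 to 0.13, Psmb7 -0.01 to 0.10, Psmb8 -0.10 to 0.25); the 50 µM interaction (Psmb10 -0.19 to 0.06, Psmb8 -0.31 to 0.05, Psmb9 -0.38 to 0.03). Absolute depth is unknown, so counting error, largest for Psmb8 and Psmb9, could not be given.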
